A study of Mus musculus with 48 samples.

Results

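The regions described are 7761 H3K27ac enhancers of the mouse cerebellum that lie more than 100 kb from the nearest start site bearing H3K4me3. They were chosen from the authors' list of 26183 enhancers by position alone. For each enhancer, the gap in base pairs was taken from its edge to the edge of the nearest of 15127 H3K4me3 start site regions on the same chromosome, and an enhancer with a gap over 100 kb is termed far. The far enhancers made up 29.6% of the list (95% Wilson interval 29.1 to 30.2%). Both lists carry the label of postnatal day 22, and every region in them is 1000 bp wide. Positions are on mouse build mm9.

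The 48 samples of the series are mouse cerebella of 2 genotypes, wild type (WT) and conditional knockout (cKO) of Chd4, an ATPase that remodels nucleosomes. The 20 chromatin samples at day 22 are labelled for Chd4, H2A.z, H2A.z-ac, H3, H3K27me3 or input. The others are RNA samples: 16 of days 27 to 28, from WT and cKO mice and from WT mice at rest or trained on a rotarod, and 12 of day 12, which are Sync-TRAP pull-downs of ribosome-bound RNA and input samples of both genotypes. None of these labels names H3K27ac or H3K4me3, so the lists could not be tied to a genotype, a sample or a replicate. No group of samples enters what follows, nothing in it compares WT with cKO, and all values are descriptions of positions with no test.

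H3K27ac is an acetyl mark on the tail of histone H3 that is found at active enhancers and active promoters, and H3K4me3 is a methyl mark that sits at the start sites of active genes. An enhancer raises the transcription of a gene from a distance, by a loop of chromatin that brings it near the promoter. Enhancers can lie in introns, between genes, or inside gene deserts, which are long stretches without protein-coding genes. In the cerebellum, granule neurons are by far the most numerous cells, and marks measured in whole tissue mix all its cell types. The H3K4me3 list holds marked start sites only. A stretch without a listed region can therefore be a gene desert, the body of a long gene, or a run of genes that are silent in this tissue. It can also hold H3K4me3 away from the listed start sites, and these cannot be told apart here. Such stretches are named H3K4me3-free intervals below, and not gene deserts. The name means free of listed regions, and distances from H3K4me3 below are distances from listed regions.

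Most far enhancers lay not much beyond the threshold. Their median gap to H3K4me3 was 192 kb, and the middle 50% lay between 135 and 315 kb. Gaps of 100 to 200 kb were found for 4079 of them (52.6%), gaps of 200 to 500 kb for 2802 (36.1%), gaps of 500 to 1000 kb for 660 (8.50%), and gaps over 1000 kb for 220 (2.83%). The other 18422 enhancers had a median gap of 29.8 kb, and no enhancer of either kind was closer than 451 bp to an H3K4me3 region. The gaps formed a single broad hump with no break at the threshold. There were 671 far enhancers within 10 kb above it and 738 other enhancers within 10 kb below it. The members just inside were chr11:3662401-3663400 with a gap of 100006 bp, chr3:138505701-138506700 with 100029 bp and chr15:66307601-66308600 with 100033 bp. The regions just outside were chr8:36990101-36991100 with 99987 bp, chr5:111409301-111410300 with 99979 bp and chr11:80391001-80392000 with 99953 bp.

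**Figure D1:**
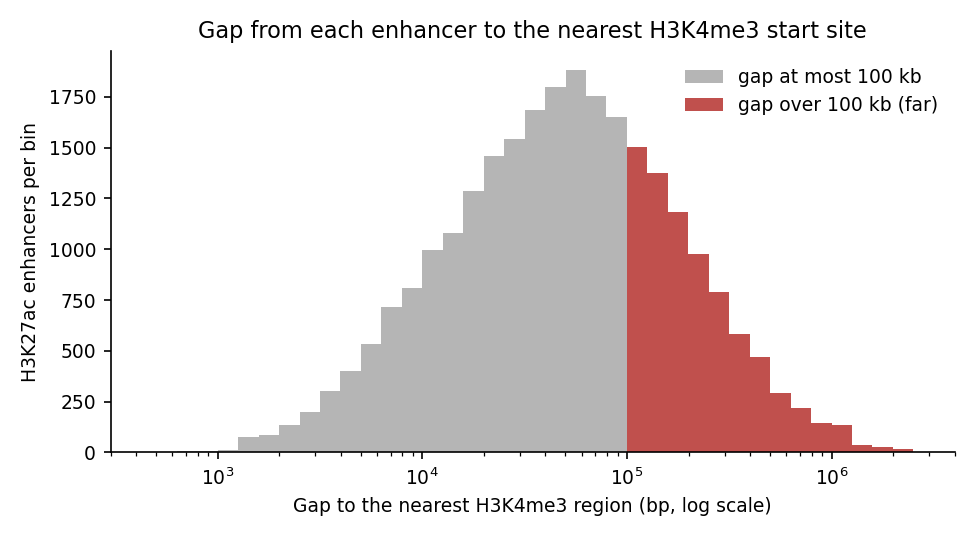
Number of H3K27ac enhancers (y axis) by the gap to the nearest H3K4me3 region in bp (x axis, log scale), with the 7761 far enhancers in red and the other 18422 in grey. The counts run through the threshold of 100 kb without a step, and the far enhancers are the right-hand shoulder of one distribution.

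The most remote enhancers lay on chromosomes 2 and 8. The largest gap of all was 2754 kb, at chr2:41836501-41837500. The next 2 regions in order of gap were its neighbours at chr2:41788101-41789100, with a gap of 2706 kb, and chr2:41762301-41763300, with 2680 kb. These 3 regions of chromosome 2 therefore share one stretch and are not independent. The fourth was chr8:52001101-52002100 with 2594 kb, and the fifth chr2:87365801-87366800 with 2488 kb. An enhancer with H3K4me3 on both sides also has a farther neighbour, and the median gap to that farther side was 472 kb over the 7748 far enhancers that lay between H3K4me3 regions. The remaining 13 lay beyond the outermost H3K4me3 region of 6 chromosomes.

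Enhancers were sparser far from H3K4me3 than near it, per length of sequence. Of the 2565 Mb between the outermost H3K4me3 regions of the chromosomes, 1391 Mb (54.2%) was far enough from any H3K4me3 region to hold a far enhancer. That sequence held 5.57 enhancers per Mb (95% exact Poisson interval 5.45 to 5.70), and the sequence nearer to H3K4me3 held 15.7 per Mb (15.5 to 15.9), which is 2.81 times as many. These intervals cover counting error only and take regions as independent, which neighbouring regions are not. No genome of this build was used, so unsequenced gaps count as sequence.

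Density rose over the nearest classes and then fell step by step. It was 13.6 enhancers per Mb within 10 kb of H3K4me3, 18.7 at 10 to 25 kb, 16.9 at 25 to 50 kb and 14.4 at 50 to 100 kb. Only 16 of the 26183 enhancers had a gap under 1 kb, and that sequence still counts in the nearest class. The lower value there thus depends in part on how few enhancers are listed next to start sites. Beyond 100 kb the density went from 10.2 per Mb at 100 to 200 kb to 6.83 at 200 to 300 kb, 4.40 at 300 to 500 kb, 2.26 at 500 to 1000 kb and 1.15 beyond 1000 kb. Distances here run from the enhancer's centre, so these classes also take in enhancers with gaps just under 100 kb. Long intervals weigh more in the farther classes, so the same profile was taken over the 503 intervals of 1 Mb or more alone, each of which holds every distance up to 500 kb. There the density was 9.94 per Mb within 10 kb, 10.1 at 10 to 25 kb, 8.87 at 25 to 50 kb, 7.95 at 50 to 100 kb, 5.70 at 100 to 200 kb, 4.03 at 200 to 300 kb and 3.33 at 300 to 500 kb. Within the same long intervals, enhancers beyond 25 kb thus also became sparser inward, from a lower level at the edges than over all intervals.

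**Figure D2:**
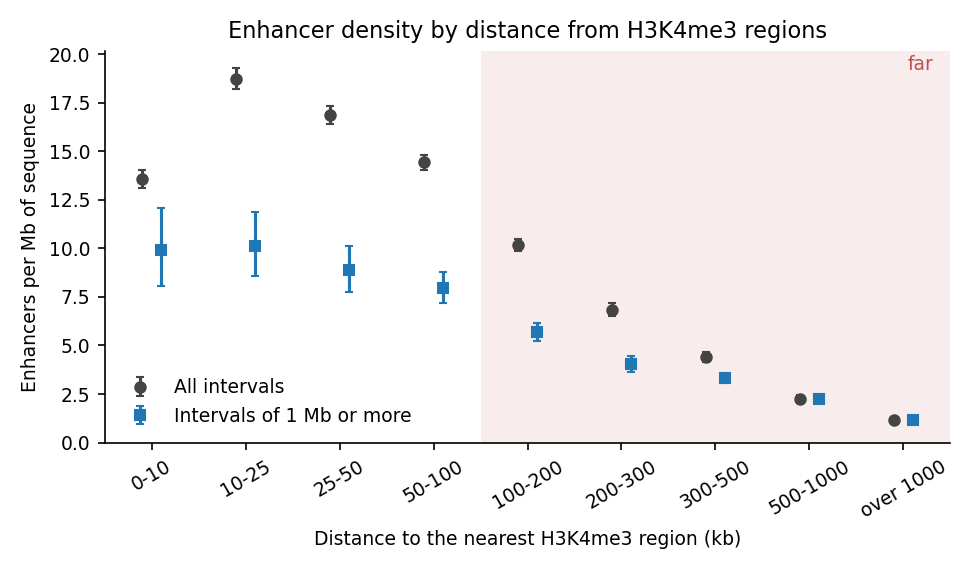
H3K27ac enhancers per Mb of sequence (y axis) in classes of distance from the enhancer's centre to the nearest H3K4me3 region in kb (x axis), over all H3K4me3-free intervals (circles) and over the 503 intervals of 1 Mb or more (squares). Bars are 95% exact Poisson intervals. The shaded classes, marked far, are those with centres over 100 kb away, where density falls from 10.2 to 1.15 per Mb over all intervals.

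The number of far enhancers differed widely between the H3K4me3-free intervals. Overlapping H3K4me3 regions merged into 12685, which bound 12664 intervals, and 2781 of these were long enough to hold a far enhancer. Of the 2781, 1373 (49.4%) held at least 1 and 1408 held none. A single far enhancer was found in 398 intervals, and the median of those with any was 3. The 192 fullest intervals, 14.0% of those with a member, held 50% of the far enhancers inside intervals but 12.9% of the far sequence. The 10 fullest held 547 (7.06%) in 0.863% of the far sequence. Intervals were ranked here by their number of far enhancers, so shares above those of the sequence are built into the ranking. Whether they exceed those of an even or random placement was not tested. At the other end, intervals without a far enhancer took up 511 Mb, or 36.7% of the far sequence, and 759 of these 1408 intervals held no enhancer at all.

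Intervals of 0.5 Mb or more were more often occupied than shorter ones, with little change among the longer classes, while density fell with length. Of the 1622 intervals under 0.5 Mb, 38.5% held a far enhancer, against 63.4% of 656 intervals of 0.5 to 1 Mb, 66.8% of 337 intervals of 1 to 2 Mb and 65.1% of 166 intervals of 2 Mb or more. The far sequence of these 4 classes was 182, 324, 396 and 488 Mb, so a shorter interval had less room for a far enhancer. How much of the difference in occupancy comes from this was not tested. Density of far enhancers over the same 4 classes was 12.9, 8.82, 3.99 and 1.94 per Mb. The flanks of these intervals, the sequence within 100 kb of either end, held 15.5, 11.5, 9.65 and 6.65 enhancers per Mb. The inner sequence was therefore sparser than the flanks in each class. Over the 1159 intervals of 0.5 Mb or more, the flanks were denser than the inner sequence in 533, the inner sequence was denser in 351, and 275 held no enhancer in either. Inner and flank density went together across these intervals (Spearman's rho 0.56, n = 1159, the 275 without an enhancer included). Each fell with interval length over the classes above, which the rho does not take into account. Both come from the same enhancer list, and neighbouring intervals share a chromosome.

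Length went only loosely with the number of far enhancers in an interval (Spearman's rho 0.35 over 2781 intervals). The longest interval, of 10.2 Mb, held 1 far enhancer, while an interval of 692 kb on chromosome 19 held 50. There were 227 intervals with 10 or more far enhancers. Together these held 4234, which is 54.6% of the far enhancers inside intervals, at a median of 28.9 per Mb and a range from 2.44 to 143 per Mb.

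**Figure D3:**
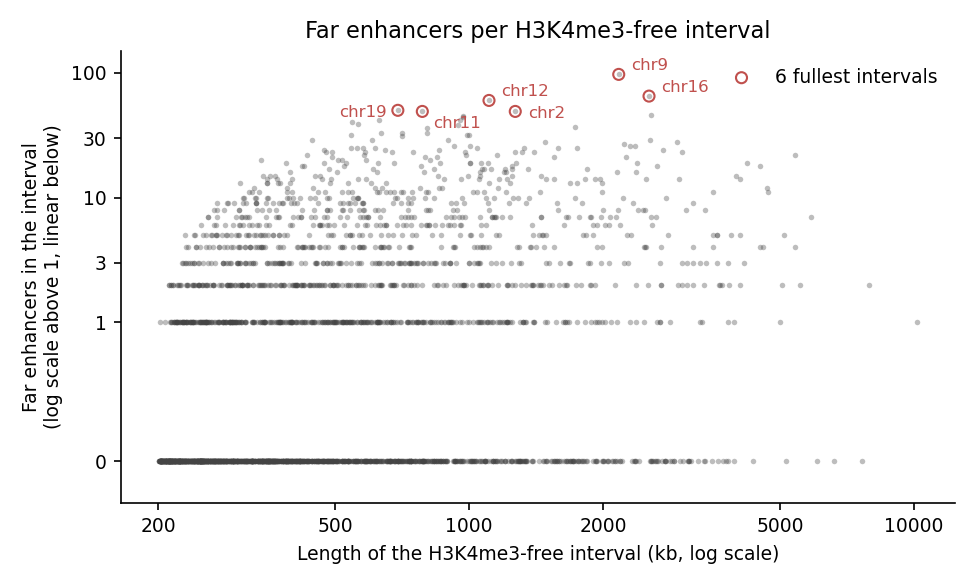
Far enhancers per H3K4me3-free interval (y axis, log scale above 1 and linear below) against the length of the interval in kb (x axis, log scale), 1 point for each of the 2781 intervals that can hold one. The 6 fullest intervals, ringed and labelled by chromosome, hold 49 to 97 far enhancers and are 692 to 2539 kb long, and empty intervals occur up to a length of 7.65 Mb.

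The fullest interval was chr9:27599354-29770214, which is 2171 kb long and held 97 far enhancers, or 49.2 per Mb. Its flanks held only 2 enhancers, 9.95 per Mb, so that the enhancers of this interval were mostly deep inside it. The first far enhancer came 417 kb after the interval's start, and the last 128 kb before its end. Of the 97, 32 lay before the midpoint and 65 after it. Neighbouring far enhancers were separated by a median of 8.50 kb, and the largest empty step between them was 157 kb.

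The interval with the next highest count, chr16:5885386-8424729, was longer still, at 2539 kb, and held 65 far enhancers at 27.8 per Mb. It was lopsided, with 58 before the midpoint and 7 after it. The last far enhancer stood 594 kb from the end, and the largest step between neighbours was 378 kb. Its flanks held 24.9 enhancers per Mb, close to the inner density.

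The interval chr12:83718986-84828186 held 60 far enhancers in 1109 kb. They began 455 kb after its start and ran to 100.4 kb from its end, and 12 other enhancers lay in the flanks. Their median spacing, 5.60 kb, was the tightest of the 6 fullest intervals. The interval chr2:134612400-135883162 held 49 far enhancers in 1271 kb, 39 of them after the midpoint. They spanned 97.4% of the sequence open to them, with a largest step of 328 kb. In both, most of the far enhancers lay toward the later end of the interval.

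The remaining 2 of the 6 were shorter, and their far enhancers were spread almost evenly about the midpoint. In chr19:22523198-23215215, 692 kb long, the 50 far enhancers spanned 98.4% of the sequence open to them at 102 per Mb, with 22 before and 28 after the midpoint. In chr11:92961104-93746580, 785 kb long, the 49 far enhancers spanned 96.3% of it at 83.8 per Mb, with 25 before and 24 after. Their median spacings were 7.90 and 5.90 kb. No step between neighbours exceeded 34.7 kb in the interval of chromosome 19 or 53.6 kb in that of chromosome 11.

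**Figure D4:**
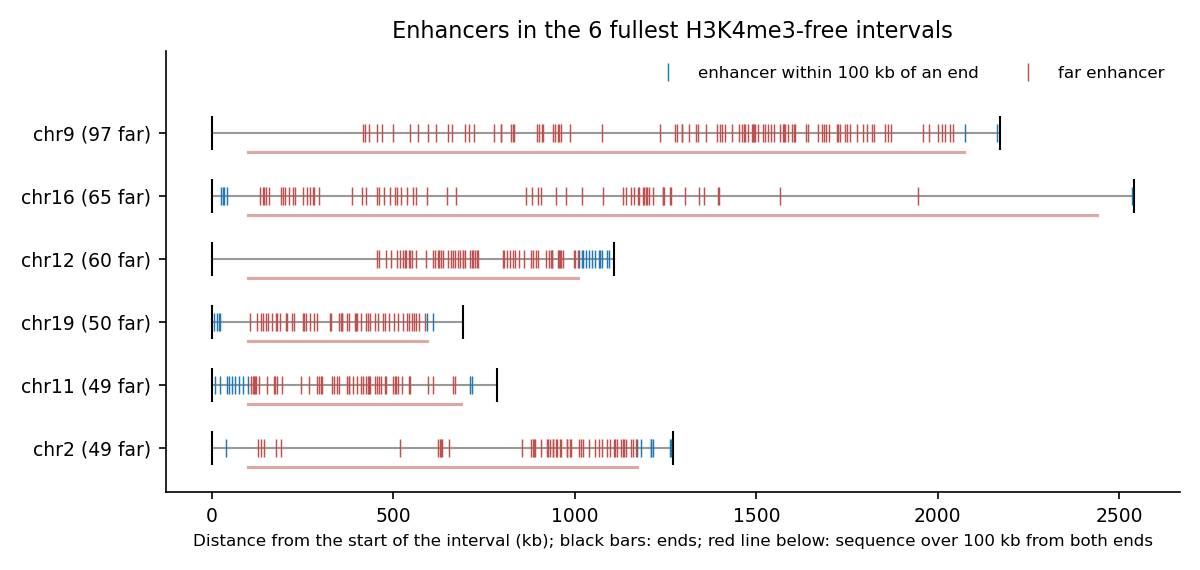
Position of each enhancer (ticks) in the 6 fullest H3K4me3-free intervals, as distance from the start of the interval in kb (x axis), with 1 row per interval, far enhancers in red, enhancers within 100 kb of an end in blue and the ends as black bars. The chr19 and chr11 rows have no step over 53.6 kb between far enhancers, the chr12 and chr2 rows are crowded toward the later end, and 58 of the 65 far enhancers of the chr16 row lie before its midpoint.

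Spacing along the chromosome showed close neighbours and a long tail. Successive far enhancers of one interval (6375 pairs) were separated by a median of 13.5 kb, with the middle 50% between 5.40 and 41.9 kb. The commonest step was 2 to 4 kb (689 pairs), followed by 4 to 6 kb (649 pairs), and 776 pairs (12.2%) were over 100 kb apart. Measured to the nearest enhancer of any kind, the median gap was 8.80 kb for far enhancers and 7.80 kb for the others. A neighbour within 2 kb was found for 11.0% of far and 10.3% of other enhancers. Within 10 kb the shares were 53.7% (Wilson interval 52.6 to 54.8%) and 58.1% (57.3 to 58.8%). The Wilson intervals for spacing, isolation and groups take enhancers as independent, which neighbouring ones are not. The difference was wider in proportion at the long end, where 800 far enhancers (10.3%, Wilson interval 9.65 to 11.0%) had no enhancer within 100 kb, against 887 others (4.81%, 4.52 to 5.13%).

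Isolation grew with the gap to H3K4me3. No other enhancer lay within 100 kb of 6.74% of the far enhancers with gaps of 100 to 200 kb (Wilson interval 6.01 to 7.55%), of 10.7% of those with 200 to 500 kb (9.62 to 11.9%) and of 25.6% of those with over 500 kb (22.8 to 28.6%). The share with a neighbour within 10 kb went the other way, at 58.6%, 50.8% and 39.8%. Even so, the median distance to the nearest enhancer was 20.5 kb in the most remote class. Remote enhancers therefore included both lone regions and regions with a close neighbour.

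Groups were formed by chaining far enhancers that were at most 10 kb from the next. Of the 7761, 3671 (47.3%) stood alone, 1716 were in pairs, and 2374 (30.6%, Wilson interval 29.6 to 31.6%) were in 557 groups of 3 or more. The other enhancers, chained at the same gap, had 35.2% (34.5 to 35.9%) in groups of 3 or more. Members of a group are counted together, so these intervals are too narrow to serve as a test. They lie more densely, at 15.7 against 5.57 per Mb. Far and other enhancers were chained separately, so the 100 kb edge can cut chains of either kind. Only chains of other enhancers can run across H3K4me3 regions. How much of the difference in shares comes from density or from where chains can run was not tested. The groups of far enhancers were short, with a median span of 16.8 kb, and 14 of them had 10 or more members. They fell in 313 intervals, 113 of which held more than 1 such group. A wider chaining gap of 50 kb put 67.4% of far and 79.4% of other enhancers in groups of 3 or more. The largest far group then had 58 members over 638 kb, and the largest group of other enhancers had 40 over 464 kb. At 5 kb the shares were 13.2% and 13.6%.

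Which groups were largest depended on the chaining gap. At 10 kb the largest was chr4:46797101-46902900, with 17 far enhancers in 106 kb and a median spacing of 5.10 kb. Next came chr4:84968401-85051900 with 16 in 83.5 kb, chr6:118726601-118818900 with 15 in 92.3 kb, chr4:139625901-139695500 with 14 in 69.6 kb and chr7:30206001-30297600 with 14 in 91.6 kb. Chromosome 4 thus held 3 of the 5. The group of chromosome 6 lay 214 to 271 kb from H3K4me3, and the other 4 began between 101 and 117 kb from it. By number of far enhancers, the intervals around these groups ranked between 12 and 120. At 10 kb, none of the 6 fullest intervals held a group of over 9. At 50 kb the order changed, and the largest group lay in the fullest interval: it was chr9:28833101-29471000, the group of 58 over 638 kb. Next came chr19:22628801-23112200, with all 50 far enhancers of that interval over 483 kb.

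All 20 chromosomes with enhancers, the autosomes and X, had far enhancers. Chromosome Y has 4 H3K4me3 regions and no enhancer in the lists. The share of a chromosome's enhancers that were far was highest on chromosome 3, at 36.5% (442 of 1211, Wilson interval 33.8 to 39.2%), chromosome 16, at 36.4% (363 of 998, 33.4 to 39.4%), and chromosome 9, at 36.3% (597 of 1645, 34.0 to 38.6%). These 3 do not differ beyond their intervals. It was lowest on chromosome 7, at 18.6% (284 of 1523, 16.8 to 20.7%), chromosome 11, at 19.0% (355 of 1869, 17.3 to 20.8%), and chromosome 19, at 20.6% (128 of 620, 17.6 to 24.0%), and these also overlap each other. The intervals of the upper 3 do not meet those of the lower 3, but these chromosomes were picked as the extremes of 20. The intervals also take enhancers as independent, which neighbouring ones are not. Differences between chromosomes were not tested. Chromosomes with more merged H3K4me3 regions per Mb had lower shares (Spearman's rho -0.64, n = 20 chromosomes), and the H3K4me3 list enters both measures.

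Per Mb of far sequence the order was another one. Chromosome 9 was densest, at 10.5 far enhancers per Mb (Poisson interval 9.69 to 11.4), followed by chromosome 18 at 7.72 (6.95 to 8.55) and chromosome 4 at 7.61 (7.03 to 8.24). The Poisson interval of chromosome 9 does not meet those of the other 2, which overlap each other. These chromosomes were picked for their density and the intervals take regions as independent, so this is no test of a difference. Without its fullest H3K4me3-free interval, which holds 16.2% of its members, chromosome 9 had 9.12 per Mb. This is below its Poisson interval, though it was still the densest of 20. The lowest were chromosome X at 1.14 per Mb (0.943 to 1.36), chromosome 7 at 3.51 (3.11 to 3.94) and chromosome 14 at 4.72 (4.24 to 5.23). The median of the autosomes was 5.42 per Mb.

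Chromosomes 3 and 11 show how the measures part. Chromosome 3 had the highest share of far enhancers but a density of 4.91 per Mb, with 58.3% of its sequence far from H3K4me3. Chromosome 11 had the next to lowest share but 7.58 per Mb, with only 39.4% of its sequence far. Chromosome 7 was low on both, with 3.51 far enhancers per Mb beside 18.1 other enhancers per Mb of nearer sequence. Far and other density went together only loosely over the 19 autosomes (Spearman's rho 0.26), and other enhancers were denser than far ones on each of the 20 chromosomes.

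Chromosome X stood apart in density but not in share. It held 122 far enhancers among 377, which is 32.4% (27.8 to 37.2%), near the autosomal median of 31.9%. Its density was low in both kinds of sequence, at 1.14 per Mb far from H3K4me3 and 4.70 per Mb near it. Of 156 intervals of X that could hold a far enhancer, 35 did. The far enhancers of X were also the most remote, with a median gap of 278 kb against 150 to 229 kb on the autosomes, and 11.5% of them were in groups of 3 or more. X had the fewest merged H3K4me3 regions per Mb of the 20 chromosomes, 2.84, and the largest share of far sequence, 66.3%. How much of the larger gap comes from this was not tested. Chromosome 19 rested on 1 interval: its fullest interval held 39.1% of its far enhancers, and without it the density fell from 5.05 to 3.14 per Mb.

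**Figure D5:**
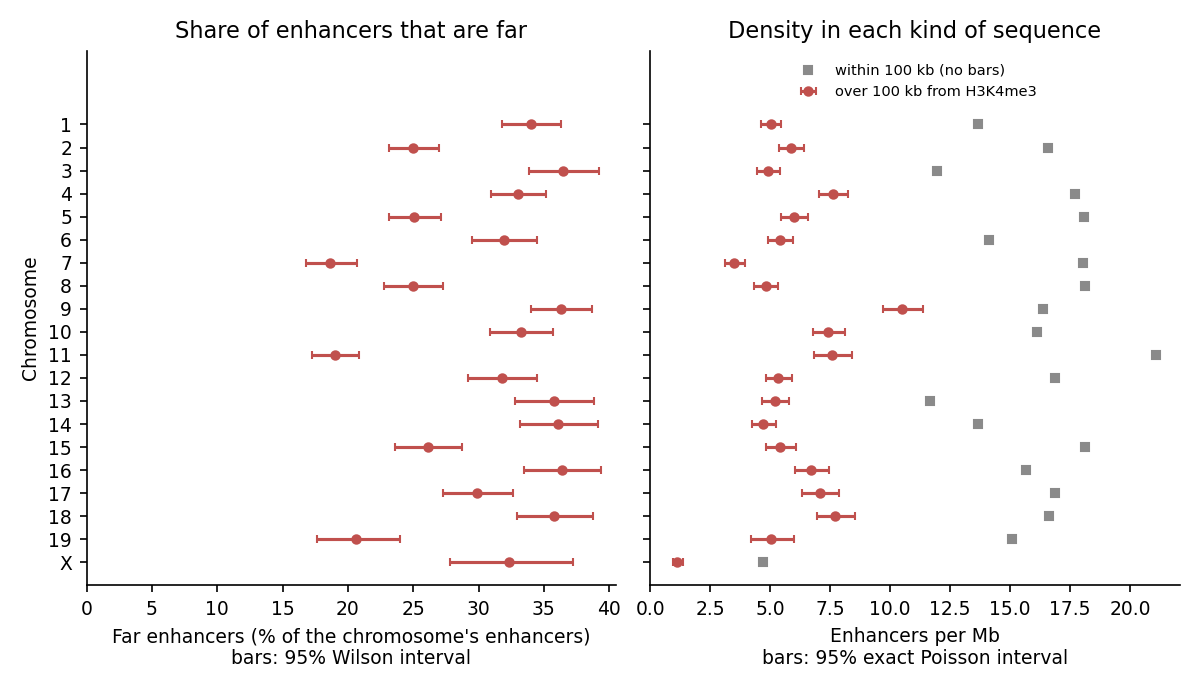
Left, far enhancers as a percentage of each chromosome's enhancers, with 95% Wilson intervals. Right, enhancers per Mb for each chromosome, in sequence over 100 kb from H3K4me3 (circles, 95% exact Poisson intervals) and in sequence within 100 kb (squares); chromosome 9 is highest among the circles at 10.5 per Mb, and X is lowest in both kinds of sequence with a share of 32.4%.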

How the data were processed

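The deposited lists give a chromosome, a start and an end for each region, with no score, so peaks could not be filtered by strength. The authors' regions are on build mm9, and the submitters' processing notes name Bowtie, SICER, bedtools and edgeR with no role. For the calling of enhancers and start sites, thresholds and replicates were not given in the sources used here. Deposited gene tables have no positions and were not used. No sequence or gene annotation of mm9 was used, so whether a region is exonic, intronic or intergenic is not given.

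Gaps, intervals and chains were computed with Python 3.11.15 and pandas 2.3.3, tested on simulated data. No line was repeated. H3K4me3 regions sharing at least 1 bp were merged to bound intervals and to count such regions per Mb. Gaps were taken from the merged regions, which leaves them unchanged. Shares have 95% Wilson and densities 95% exact Poisson intervals (scipy 1.17.1). Printed coordinates count from 1. Named regions are the 5 with the largest gap, the 3 on either side of the threshold, the 6 fullest intervals, the 5 largest groups, and the 3 highest and lowest chromosomes. X against the autosomes, and chromosomes 3, 11 and 19, were singled out after their values were seen. The members and lists were chosen with earlier results of these data known.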

Additional observations from a re-analysis of the deposited data

How the results depend on the processing

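The number of far enhancers follows the threshold: 13069 at 50 kb and 3682 at 200 kb, beside 7761 at 100 kb. Intervals with such an enhancer then numbered 2494 and 663, beside 1373, and 746 held at least 3. Density in the far sequence was 7.42 per Mb at 50 kb, 3.71 at 200 kb, and 5.94 on the autosomes alone. Far enhancers in groups of 3 or more numbered 1023, 3809 and 5232 with chaining gaps of 5, 20 and 50 kb, beside 2374. Without its fullest interval, a setting added after seeing the data, chromosome 9 had 9.12 far enhancers per Mb. Of 20 alternatives, the other 8 moved a count by less than 1.5 times or a share within its interval. They were centre distances (7822 far enhancers), merged regions (for 3 results), every line counted, autosomes alone (for 2 counts), and lone H3K4me3 regions left out (7837). No paired analysis was possible because the results come from no test and the lists carry no replicates. The depth behind the lists is unknown, so an enhancer absent from them may be one that was not detectable.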

Other observations

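The longest H3K4me3-free intervals included many with no H3K27ac enhancer. Of 503 intervals of 1 Mb or more, 170 held no far enhancer and 117 no enhancer at all, and of 166 intervals of 2 Mb or more, 58 held no far enhancer and 35 no enhancer at all. These shares were lower than over all 2781 intervals that can hold a far enhancer. Of those, 1408 held no far enhancer and 759 no enhancer at all. The longest interval without a far enhancer was 7.65 Mb.

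All 26183 enhancer starts were multiples of 100 bp in the deposited list, against 163 of 15127 H3K4me3 region starts. Enhancer positions, and so the gaps, are therefore given on a coarser grid than start sites. In the same list, 8 enhancers overlapped another enhancer.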
